A study of Homo sapiens with 8 samples.

Results

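The genes described are the human replication-dependent histone genes of LP-1 cells, a line of human multiple myeloma. They were taken from the deposited table by symbol (HIST1H to HIST4H) and by a level of at least 0.5 RPKM, a read count scaled to transcript length and to the depth of the library, in any of 8 RNA sequencing libraries. Of 63129 genes listed, 106 rows carried such a symbol and 61 of them reached this level. They comprised 4 H1, 15 H2A, 18 H2B, 13 H3 and 11 H4 genes, of which 9 were annotated as pseudogenes and 52 as protein coding. By symbol, 44 lay in the HIST1 cluster on chromosome 6, 16 in HIST2 on chromosome 1 and 1, HIST4H4, on chromosome 12. The other 45 rows did not exceed 0.434 RPKM in any library, 32 of them were at 0 throughout, and they included all 4 HIST3 rows. The gene just inside the limit was the pseudogene HIST1H2APS3, with a highest value of 0.502 RPKM, and the row just outside it was HIST1H4PS1, with 0.434 RPKM.

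Replication-dependent histone genes supply the core histones H2A, H2B, H3 and H4, around which DNA is wound, and the linker histone H1, which binds where DNA enters and leaves the core particle. Their transcription and the stability of their mRNA rise in S phase, when new DNA has to be packed. Most of their mRNAs end in a conserved stem-loop rather than in a poly(A) tail. Some of these genes can also be read through to a downstream polyadenylation signal, and such transcripts are found in cells that are not replicating.

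The cells had been exposed over 6 hr to 2.5 μM SGC-CBP30, an inhibitor of the bromodomains of the histone acetyltransferases CBP and EP300, to 250 nM CPI203, an inhibitor of the BET family of bromodomain proteins, or to DMSO, the solvent. Each of the 4 groups held 2 libraries, described as biological replicates, and each compound had its own pair of DMSO libraries, assigned by the naming series of the libraries. All libraries came from the same line with no genetic change, so n is 2 cultures of 1 line in every group. All 8 markers of plasma cells or myeloma that were examined were at 10.9 RPKM or more in every library, and none of 8 markers of T cells, monocytes, epithelium or fibroblasts exceeded 0.499 RPKM. Depth was estimated from the smallest steps in the low values of genes with 1 exon and 1 transcript. It was 34100000 to 34400000 reads in the DMSO libraries of SGC-CBP30 and 46800000 to 50100000 with SGC-CBP30. It was 26600000 to 28900000 in the DMSO libraries of CPI203 and 26000000 to 29700000 with CPI203. At these depths 1 RPKM of a transcript of 500 bases stood for 13.0 to 25.1 reads, so genes under 1 RPKM rested on few reads.

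The stem-loop is the sequence that sets these mRNAs apart, and it was looked for as the histone stem-loop motif of 16 bases in the sense strand of the transcripts of GENCODE release 29. It was found in 28 of the 52 coding genes and in 2 of the pseudogenes. Of all 58721 GENCODE genes, 80 held it, or 0.136%. Of the 24 coding genes with no match, 17 had no annotated transcript over 420 bases, so that the annotation ended near the coding sequence. The 5 forms found are shown with the loop in capitals and the number of genes that carried each.
Stem-loop form in 15 genes: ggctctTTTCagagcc
Stem-loop form in 5 genes: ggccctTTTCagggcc
Stem-loop form in 4 genes: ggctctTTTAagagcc
Stem-loop form in 3 genes: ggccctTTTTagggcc
Stem-loop form in 3 further genes: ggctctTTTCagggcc
The forms that open with ggccct were carried by H4 genes, and the form with the loop TTTT was that of HIST1H4I, HIST2H4A and HIST2H4B.

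Promoters were read from RefSeq (GRCh38.p14) as 250 bases before to 50 bases after the start, for 49 of the 52 coding genes, and searched on both strands for 5 short motifs, none of which contains another. The TATA box letters TATAAA were in 33 of 49 promoters (67.3%), against 11.5% of all 35116 promoters of the same length. CCAAT was in 39 of the 39 promoters of H1, H2A, H2B and H3 genes but in 1 of 10 H4 promoters, against 34.6% of all promoters. The octamer ATTTGCAT, the sequence that the factor OCT1 binds, was in 11 of 14 H2B, 8 of 12 H2A and 1 of 10 H3 promoters, in none of the 3 H1 or 10 H4 promoters, and in 1.77% of all promoters. GGTCC, the core of the H4 subtype element, was in 10 of 10 H4 promoters and 46.3% of all promoters, and AAACACA, the H1 box, in 3 of 3 H1 promoters and 5.64% of all promoters. Windows of head-to-head genes overlap, and RefSeq gives HIST1H2AD and HIST1H3D the same window, so the promoters are not all separate. One promoter of each class is printed as the 250 bases before the start, 5′ to 3′, with each match to a motif on either strand in capitals. HIST1H1C and HIST1H2BK were chosen as the most abundant of all, HIST2H4A as the most abundant H4 gene, HIST1H2AC as the tested H2A gene with the largest change with SGC-CBP30 and HIST2H3C as the tested H3 gene with the largest change with CPI203.
HIST1H1C, chr6:26056471-26056720, minus strand: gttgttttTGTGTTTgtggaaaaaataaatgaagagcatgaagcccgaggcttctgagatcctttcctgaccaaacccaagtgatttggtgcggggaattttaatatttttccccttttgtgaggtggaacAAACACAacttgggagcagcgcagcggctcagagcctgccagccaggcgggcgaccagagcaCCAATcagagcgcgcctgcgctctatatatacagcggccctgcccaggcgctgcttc
HIST1H2AC, chr6:26123922-26124171, plus strand: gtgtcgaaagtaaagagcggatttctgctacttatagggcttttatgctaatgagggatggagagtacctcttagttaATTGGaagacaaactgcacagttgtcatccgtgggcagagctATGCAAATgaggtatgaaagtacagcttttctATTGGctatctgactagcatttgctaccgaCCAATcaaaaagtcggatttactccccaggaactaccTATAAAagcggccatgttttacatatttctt
HIST1H2BK, chr6:27146859-27147108, minus strand: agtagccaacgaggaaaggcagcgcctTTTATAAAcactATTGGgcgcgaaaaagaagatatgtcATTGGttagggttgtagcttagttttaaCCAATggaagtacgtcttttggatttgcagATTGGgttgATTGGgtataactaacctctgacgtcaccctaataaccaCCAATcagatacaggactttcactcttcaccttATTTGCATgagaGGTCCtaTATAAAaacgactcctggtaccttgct
HIST2H3C, chr1:149841209-149841458, minus strand: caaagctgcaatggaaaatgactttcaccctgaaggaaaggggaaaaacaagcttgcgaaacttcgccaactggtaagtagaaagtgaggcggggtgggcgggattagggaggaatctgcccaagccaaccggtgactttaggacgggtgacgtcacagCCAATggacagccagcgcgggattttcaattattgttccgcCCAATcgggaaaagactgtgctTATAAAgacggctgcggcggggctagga
HIST2H4A, chr1:149832407-149832656, plus strand: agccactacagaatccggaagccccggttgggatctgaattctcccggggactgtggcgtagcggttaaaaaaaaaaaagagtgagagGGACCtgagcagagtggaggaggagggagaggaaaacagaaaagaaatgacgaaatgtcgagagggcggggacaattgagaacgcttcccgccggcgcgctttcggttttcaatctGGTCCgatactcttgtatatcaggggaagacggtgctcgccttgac
The H1, H2A, H2B and H3 promoters shown hold CCAAT on one strand or the other, and the H4 promoter shown holds GGTCC on both strands and no CCAAT.

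In untreated cells a few genes made up most of the histone RNA. The linker histone gene HIST1H1C was at 144 and 145 RPKM in one DMSO pair and at 127 and 125 RPKM in the other, and the H2B gene HIST1H2BK was at 189 and 186 RPKM and at 154 and 146 RPKM. Together they gave 52.0% to 57.9% of the summed RPKM of the 61 genes in the 4 DMSO libraries. No other gene exceeded 30.0 RPKM with DMSO, and 25 of the 61 genes stayed under 1 RPKM in each DMSO library. All 61 genes together gave 0.105% to 0.117% of the total RPKM of a DMSO library.

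With CPI203 nearly all of the histone genes were higher. The summed RPKM of the 61 genes was 540 and 518 in the DMSO libraries and 2545 and 2540 with CPI203, a ratio of 4.80, or 2.26 ± 0.04 on the log2 scale (SD, n = 2). Their share of a library's total RPKM was 0.110% and 0.105% with DMSO and 0.523% and 0.527% with CPI203. Gene by gene, both CPI203 libraries were above both DMSO libraries for 58 of the 61 genes, none was below in both, where 39.2% of all genes tested were above in this way and 41.7% below. The limit of 0.5 RPKM was reached only in CPI203 libraries by 10 of the 61 genes, which therefore had to be higher there. Of the 50 genes that reached it in a DMSO library, 47 were higher without overlap. The 3 whose values overlapped, HIST1H2BI, HIST1H3PS1 and HIST1H4B, are named for that reason, after their values were seen.

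Genes that averaged 1 RPKM or more across all 8 libraries were tested with limma on log2(RPKM + 0.1), 14732 in all, and a gene is called changed where the Benjamini-Hochberg adjusted p was under 0.05 and the change at least 1.5-fold. Of the 61 histone genes, 41 entered this test, and 32 of those also averaged 1 RPKM or more in the 4 DMSO libraries. Of these 32, 31 were called higher with CPI203 and none lower (limma, also none at an unadjusted p under 0.05), where 13.4% of all genes tested were called higher and 14.4% lower. Their median log2 fold change was 2.51, against a median of -0.01 over all genes tested. The other 9 entered through their level with a compound, so that their calls, all of them higher with CPI203, were favoured by the filter. Over all 41 the log2 fold changes ran from 0.03 to 4.19. Of the 98 genes among the 14732 tested that were at least 4-fold higher with CPI203, 24 were among these 41, and 18 of the 24 were among the 32.

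**Figure D1:**
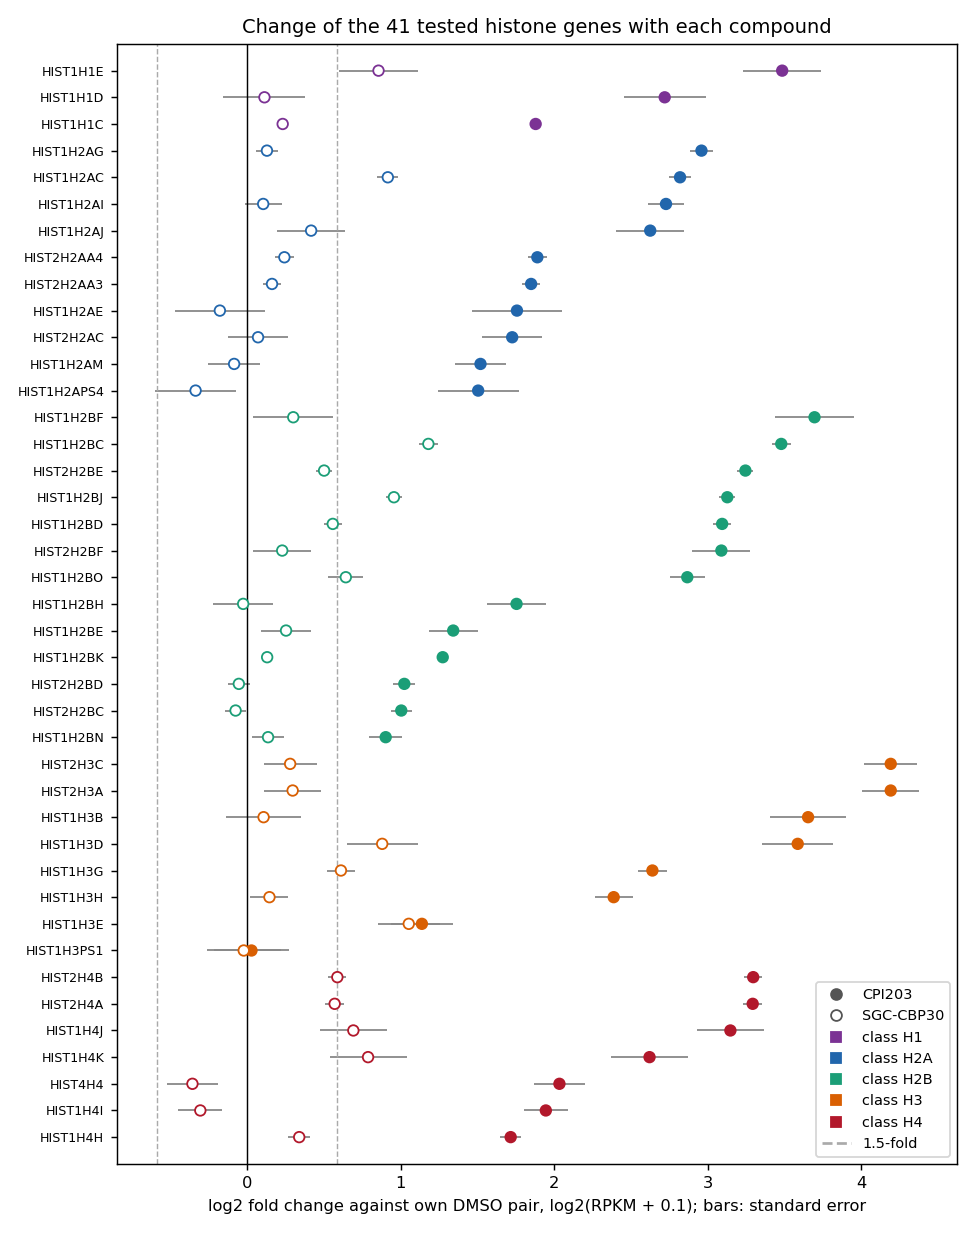
Log2 fold change (x axis, on the log2(RPKM + 0.1) scale) of each of the 41 tested histone genes against its own DMSO pair, filled for CPI203 and open for SGC-CBP30, coloured by class, with the standard error as bars and dashed lines at 1.5-fold. Apart from the pseudogene HIST1H3PS1, all filled points lie to the right of the 1.5-fold line, while the open points run from -0.36 to 1.18.

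With SGC-CBP30 the same sum was higher by a smaller margin, at 575 and 571 RPKM with DMSO and 703 and 723 RPKM with SGC-CBP30. This is a ratio of 1.24, or 0.31 ± 0.03 on the log2 scale (SD, n = 2). Both SGC-CBP30 libraries were above both DMSO libraries for 28 of the 61 genes and below both for 6, where 45.9% and 27.2% of all genes tested did so. The share of histone genes that were higher by this measure, 28 of 61, was thus that of genes in general. Of the 32 genes with at least 1 RPKM with DMSO, 7 were called higher and none lower (limma, also none at an unadjusted p under 0.05), against 3.47% and 3.79% of all genes tested. The median log2 fold change of these 32 was 0.23, against 0.07 over all genes. Over all 41 genes tested, 11 were called higher, and 18 rose at an adjusted p under 0.05 whatever the size, which 25.6% of all genes did. The count of 11 fell to 5 when the first DMSO replicate was left out, to 6 without the second SGC-CBP30 replicate, and to 3 with a pseudocount of 1.

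The response to the compounds was compared directly as the difference between their log2 fold changes, each taken against its own DMSO pair, at the single dose used of each. This difference was larger with CPI203 at an adjusted p under 0.05 (limma) for 39 of 41 genes. It was smaller for none, at an adjusted or an unadjusted p under 0.05, where 50.3% of all genes tested differed, 21.0% being larger and 29.3% smaller. Among the 32 genes with at least 1 RPKM with DMSO it was 31. The exceptions were HIST1H3E and HIST1H3PS1. A dose of 1 compound is not matched to a dose of the other, so the difference holds for these doses only.

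**Figure D2:**
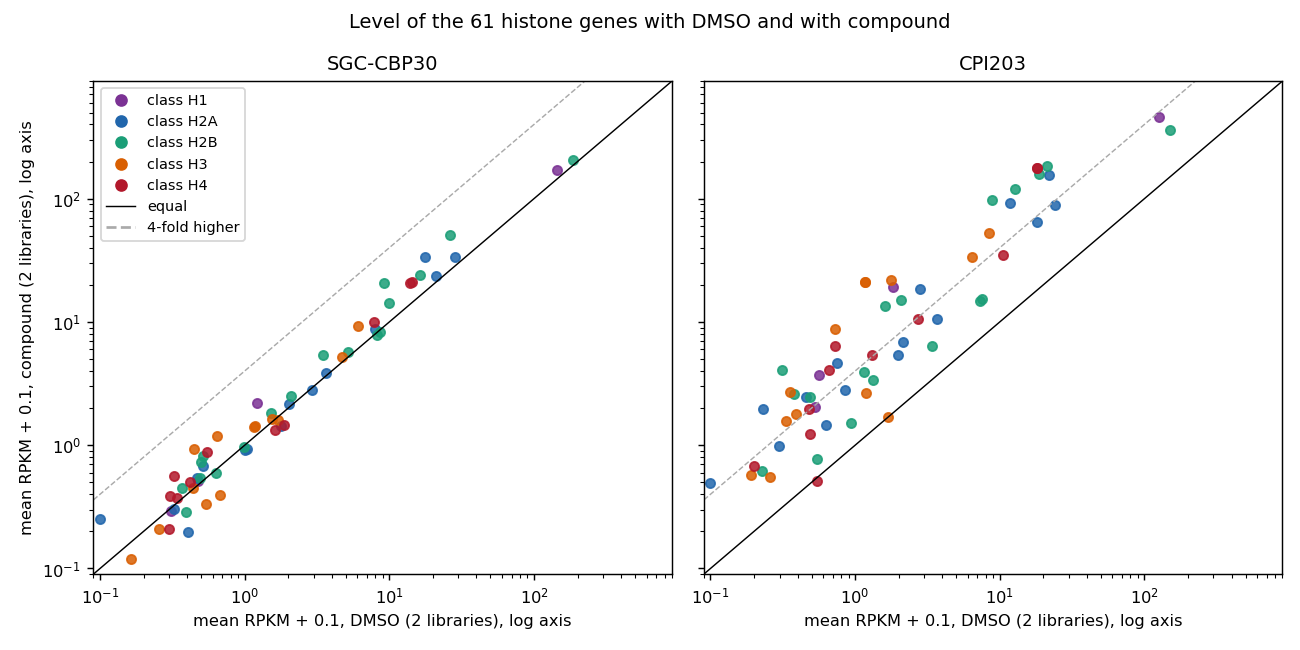
Mean RPKM + 0.1 of each of the 61 histone genes with DMSO (x axis, log scale) and with compound (y axis, log scale), for SGC-CBP30 on the left and CPI203 on the right, each point the mean of 2 libraries. With CPI203 nearly all points lie well above the line of equality, at low and at high levels, and with SGC-CBP30 they lie along the line of equality.

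Copies of histone genes are nearly identical in sequence, and a read of one copy can be assigned to another. Summing RPKM over a class makes the comparison depend less on such assignment within the class. It does not remove it, since RPKM is scaled to transcript length and the annotated lengths differ within a class. The longest annotated transcript has 2250 bases for HIST1H2AG and 387 for HIST1H2AJ. The H1 sum was 130 and 127 RPKM with DMSO and 496 and 481 RPKM with CPI203, a ratio of 3.80. The H2A sum was 89.7 and 86.8 RPKM with DMSO and 449 and 462 RPKM with CPI203, a ratio of 5.16. The H2B sum was 243 and 231 RPKM with DMSO and 1012 and 1006 RPKM with CPI203, a ratio of 4.26. In all 3 classes the 2 libraries of a group lay close together and far from those of the other group. The H1 and H2B sums rested largely on 1 gene each. In the mean of the DMSO libraries HIST1H1C gave 126 of 129 RPKM of H1, and HIST1H2BK gave 150 of 237 RPKM of H2B. With CPI203 these 2 genes were higher by ratios of 3.68 and 2.42.

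For H3 and H4, which form the inner part of the core particle, the ratios of the sums were larger. The H3 sum was 24.1 and 21.5 RPKM with DMSO and 166 and 174 RPKM with CPI203, a ratio of 7.43. The H4 sum was 53.6 and 52.1 RPKM with DMSO and 422 and 418 RPKM with CPI203, a ratio of 7.95. On the log2 scale the 5 ratios were 1.93 ± 0.04 for H1, 2.37 ± 0.04 for H2A, 2.09 ± 0.05 for H2B, 2.89 ± 0.12 for H3 and 2.99 ± 0.03 for H4 (SD, n = 2), so that the sums of H3 and H4 lay above those of H1, H2A and H2B by more than these SDs and did not differ from each other beyond them. Taken gene by gene the order was another one. The median log2 fold change of the tested genes was 2.72 for H1, 1.87 for H2A, 2.87 for H2B, 3.11 for H3 and 2.62 for H4. The H1 and H4 medians were the values of HIST1H1D and HIST1H4K, which averaged 0.419 and 0.395 RPKM over the 4 DMSO libraries. Both genes entered the test through their level with a compound, so these medians were favoured by the filter. As a share of the 61 genes, H4 went from 9.98% to 16.5% and H3 from 4.31% to 6.67%, and H1 went from 24.3% to 19.2% and H2B from 44.8% to 39.7%. No p is given for these sums, since an exact two-sided permutation test of 2 against 2 libraries cannot go below 0.333.

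These class values rest in part on genes whose spans overlap another expressed gene, of which there were 13. They include HIST1H4I, HIST2H4A and HIST2H4B among the H4 genes and HIST1H2BD, HIST1H2BK and HIST2H2BF among the H2B genes. HIST2H4A and HIST2H4B gave most of the H4 sum, and HIST1H2BK gave most of the H2B sum with DMSO. Without the 13 the log2 ratio with CPI203 was 1.93 for H1, 2.39 for H2A, 2.82 for H2B, 2.57 for H3 and 1.93 for H4. H2B was then the highest, and H3 lay below H2B but still above H2A and H1. H4 lay below H2A at the level of H1, so that its higher ratio was lost.

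**Figure D3:**
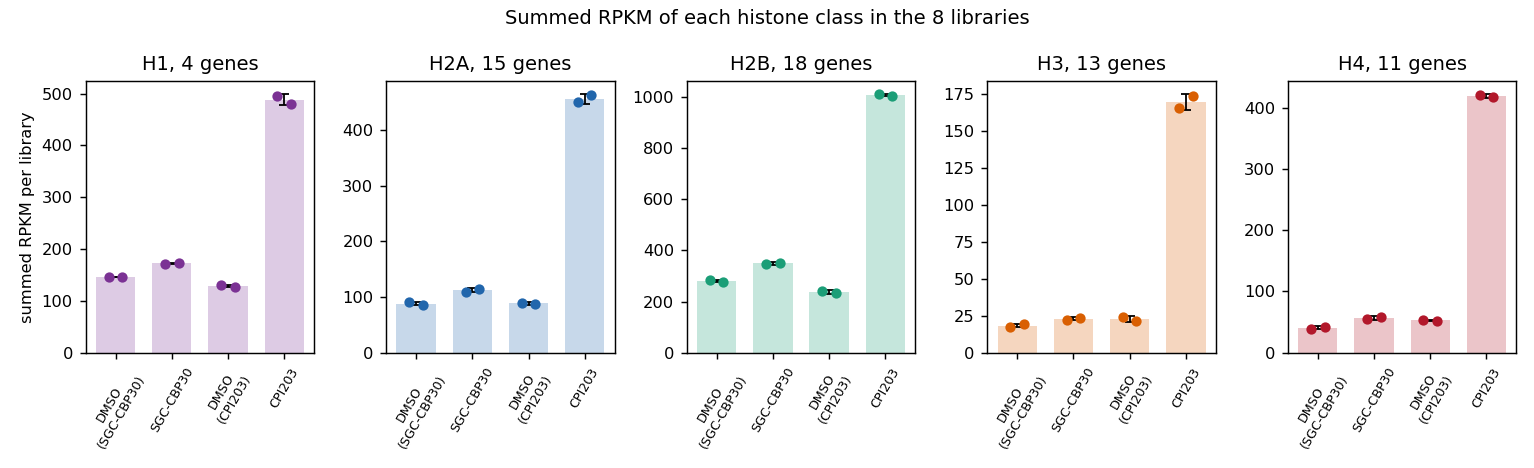
Summed RPKM (y axis, from 0, own scale in each panel) of the genes of each histone class in the 4 groups, with 1 point per library, bars at the mean and error bars of 1 SD (n = 2). In every panel both CPI203 points stand far above the other 6 points, and both SGC-CBP30 points stand above their own DMSO pair.

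With SGC-CBP30 the class sums were 146 and 146 RPKM against 172 and 173 for H1, 90.4 and 85.6 against 109 and 115 for H2A, 282 and 278 against 346 and 352 for H2B, 17.4 and 19.1 against 22.2 and 23.6 for H3, and 39.1 and 42.1 against 54.3 and 58.8 for H4, DMSO first. The groups did not overlap in any class. The log2 ratios were 0.24 ± 0.01, 0.35 ± 0.08, 0.32 ± 0.02, 0.33 ± 0.12 and 0.48 ± 0.11 in that order (SD, n = 2), and H2A, H2B and H3 lay within these SDs of each other.

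Among the linker histones, HIST1H1C had the smallest change with CPI203 and HIST1H1E the largest. HIST1H1C (chr6:26055967-26056699, hg19) was at 472 and 455 RPKM with CPI203, against 127 and 125 with DMSO, a log2 fold change of 1.88 ± 0.03 (SE, adjusted p = 4.97e-10, limma). With SGC-CBP30 it was at 169 and 170 RPKM against 144 and 145, a log2 fold change of 0.23 ± 0.03 (adjusted p = 0.000399), which rose but stayed under 1.5-fold. HIST1H1E was at 18.9 and 19.7 RPKM with CPI203 against 2.29 and 1.15, a log2 fold change of 3.49 ± 0.26 (SE). With SGC-CBP30 HIST1H1E was at 1.85 and 2.37 RPKM against 1.18 and 1.05, a log2 fold change of 0.86 ± 0.26, with an adjusted p of 0.0239 (limma). This call was lost under 6 alternatives, among them a pseudocount of 1 and the omission of either DMSO replicate, with adjusted p from 0.0275 to 0.167. HIST1H1D was at 3.70 and 3.50 RPKM with CPI203 against 0.490 and 0.436, and its values with SGC-CBP30 overlapped those with DMSO. The H1 pseudogene HIST1H1PS1 did not pass the filter on low values.

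Among the H2A genes the log2 fold changes with CPI203 ran from 1.505 for the pseudogene HIST1H2APS4 to 2.96 for HIST1H2AG. All 10 tested were called higher, where 13.4% of all genes tested were. The calls of HIST1H2AE and HIST1H2AJ were favoured by the filter, since both entered the test through their level with a compound. HIST1H2AG (chr6:27100831-27103070, hg19) was at 91.0 and 92.1 RPKM with CPI203 against a DMSO mean of 11.7 ± 0.44 RPKM (SD, n = 2), and was at 7.91 and 7.79 RPKM against 7.97 and 9.27 RPKM with SGC-CBP30, where its log2 fold change of 0.13 ± 0.07 (SE) did not pass the test. HIST1H2AC (chr6:26124372-26139344, hg19) was higher with both compounds. It was at 21.7 and 21.8 RPKM with DMSO and 158 and 151 RPKM with CPI203, a log2 fold change of 2.82 ± 0.07 (SE). With SGC-CBP30 it was at 30.6 and 36.1 RPKM against 17.6 and 17.5 RPKM, a log2 fold change of 0.92 ± 0.07 (adjusted p = 1.57e-05, limma), and it was the 1 H2A gene of 10 called with this compound.

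The copies HIST2H2AA3 and HIST2H2AA4, which lie near each other in HIST2, together gave the highest H2A level with DMSO. Their sum was 42.4 and 41.4 RPKM with DMSO and 146 and 162 RPKM with CPI203, a ratio of 3.68, and 51.8 and 47.1 RPKM against 57.1 and 57.2 RPKM with SGC-CBP30, a ratio of 1.16. Both ratios lay under those of the whole H2A class, 5.16 and 1.27. The pseudogene HIST1H2APS4 was at 1.29 and 2.49 RPKM with DMSO and 5.07 and 5.50 RPKM with CPI203.

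All 13 tested H2B genes were called higher with CPI203, where 13.4% of all genes tested were. Their changes ran from 0.90 for HIST1H2BN to 3.70 for HIST1H2BF on the log2 scale. The calls of HIST1H2BF and HIST1H2BH were favoured by the filter, since both entered the test through their level with a compound. HIST1H2BK (chr6:27106072-27114619, hg19), the most abundant histone gene, was at 365 and 360 RPKM with CPI203 against 154 and 146 RPKM, a log2 fold change of 1.27 ± 0.03 (SE). With SGC-CBP30 it was at 206 and 204 RPKM against 189 and 186 RPKM, a log2 fold change of 0.13 ± 0.03 (adjusted p = 0.0115). Both of its changes were small beside the medians of the H2B genes, 2.87 with CPI203 and 0.25 with SGC-CBP30. HIST1H2BN was at 6.01 and 6.54 RPKM with CPI203 against 3.44 and 3.18 RPKM. HIST1H2BF was at 3.69 and 4.19 RPKM against 0.203 and 0.220 RPKM, and entered the test only through the CPI203 libraries.

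HIST1H2BC (chr6:26115100-26124154, hg19) had the largest log2 fold change with SGC-CBP30 among the 41 tested histone genes. It was at 9.59 and 8.63 RPKM with DMSO and 20.1 and 21.4 RPKM with SGC-CBP30, a log2 fold change of 1.18 ± 0.06 (SE, adjusted p = 1.9e-06, limma). With CPI203 it was at 96.6 and 99.5 RPKM against 8.57 and 8.83 RPKM, a log2 fold change of 3.48 ± 0.06. At the other end was the HIST2 pseudogene HIST2H2BC, at 7.41 and 7.96 RPKM with SGC-CBP30 against 8.22 and 7.98 RPKM, a log2 fold change of -0.08 ± 0.07 that did not pass the test. With CPI203 HIST2H2BC was at 14.5 and 14.6 RPKM against 7.31 and 7.10 RPKM. It and the pseudogene HIST2H2BD are close copies of coding H2B genes, so their reads may belong in part to those.

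The tested H3 genes held both the largest and the smallest log2 fold change with CPI203 of the 41. HIST2H3A (chr1:149824180-149825836, hg19) and HIST2H3C (chr1:149811109-149812765, hg19) are copies whose values were identical in 3 of the 8 libraries. In the counts and medians of the tested genes each copy stands as a separate gene, but here they are given as 1 sum. That sum was 2.37 and 1.89 RPKM with DMSO and 41.4 and 43.0 RPKM with CPI203, a ratio of 19.8. The log2 fold change of either copy was 4.19 with CPI203, with an SE of 0.17 for HIST2H3C, which was rank 2 among the rises of all genes tested. With SGC-CBP30 the sum was 2.45 and 2.79 RPKM against 2.52 and 1.75 RPKM, and the groups overlapped. Both copies overlap an H4 gene at their ends, in the pairs HIST2H3A with HIST2H4B and HIST2H3C with HIST2H4A.

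HIST1H3G, the most abundant H3 gene with DMSO, was at 51.8 and 53.2 RPKM with CPI203 against 8.29 and 8.38 RPKM, a log2 fold change of 2.64 ± 0.09 (SE). With SGC-CBP30 it was at 8.88 and 9.46 RPKM against 5.35 and 6.66 RPKM, a log2 fold change of 0.61 ± 0.09 (adjusted p = 0.000952, limma). Under 6 alternatives this change was under 1.5-fold, with log2 values from 0.37 with all 4 DMSO libraries as controls to 0.57 without the second SGC-CBP30 replicate. HIST1H3E was the exception in which the compounds were not told apart. It was at 0.820 and 0.832 RPKM with SGC-CBP30 against 0.377 and 0.317 RPKM, and at 2.66 and 2.40 RPKM with CPI203 against 1.05 and 1.14 RPKM. The log2 fold changes were 1.05 and 1.14, and their difference of 0.09 had a 95% interval from -0.55 to 0.72. The 2 DMSO pairs themselves stood apart for this gene, since the lower value of one pair was above the higher value of the other. With all 4 DMSO libraries as controls the log2 fold change of HIST1H3E with SGC-CBP30 was 0.34 and was not called, and with a pseudocount of 1 it was 0.44 and under 1.5-fold.

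HIST1H3PS1, annotated in GENCODE as a processed pseudogene, was the 1 tested gene of 41 not called with CPI203. It was at 1.73 and 1.42 RPKM with DMSO and 1.61 and 1.59 RPKM with CPI203, a log2 fold change of 0.03 ± 0.24 (SE, adjusted p = 0.926, limma). With SGC-CBP30 its values were 1.56 and 1.46 RPKM against 1.15 and 2.04 RPKM. Among its other symbols RefSeq gives H3F3AP1, a name formed from H3F3A, a replication-independent H3 gene.

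Of the 7 tested H4 genes all were called higher with CPI203, where 13.4% of all genes tested were. HIST1H4J and HIST1H4K entered the test through their level with a compound, so that their calls were favoured by the filter. HIST2H4A (chr1:149804220-149811339, hg19) and HIST2H4B (chr1:149825606-149832714, hg19) are near-identical copies, and their sum made up most of the H4 class. The sum was 37.1 and 35.1 RPKM with DMSO and 358 and 353 RPKM with CPI203, a ratio of 9.86. With SGC-CBP30 it was 39.9 and 43.6 RPKM against 26.8 and 28.9 RPKM, a ratio of 1.498, and the copies fell on either side of the limit of 1.5-fold, with log2 fold changes of 0.57 for HIST2H4A and 0.59 for HIST2H4B, the latter under 1.5-fold in 6 alternatives (0.39 to 0.56). HIST1H4H had the smallest H4 change with CPI203, at 34.3 and 34.7 RPKM against 10.1 and 10.8 RPKM, a log2 fold change of 1.72 ± 0.07 (SE). HIST1H4K had the largest of the tested H4 genes with SGC-CBP30, at 0.507 and 0.422 RPKM against 0.205 and 0.249 RPKM, a log2 fold change of 0.79 ± 0.25 with an adjusted p of 0.0315, and this call was lost under most of the alternatives tried.

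HIST4H4 (chr12:14920932-14924065, hg19), which stands alone on its chromosome, was at 5.84 and 4.67 RPKM with CPI203 against 1.11 and 1.30 RPKM, a log2 fold change of 2.03 ± 0.16 (SE, adjusted p = 3.23e-06, limma). With SGC-CBP30 it was at 1.27 and 1.47 RPKM against 1.80 and 1.75 RPKM, a log2 fold change of -0.36 ± 0.16 that did not pass the test (adjusted p = 0.111). Both SGC-CBP30 values lay under both DMSO values, the opposite of the class sum. The same held for HIST1H4I, at 1.31 and 1.13 RPKM with SGC-CBP30 against 1.36 and 1.70 RPKM, which also did not pass the test (limma, adjusted p = 0.119). The log2 fold change with SGC-CBP30 was positive in 5 of the 7 tested H4 genes. The difference between the compounds for HIST4H4 was 2.39 on the log2 scale, with a 95% interval from 1.87 to 2.91.

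The 20 genes under 1 RPKM on average were fitted only with the filter removed. In that fit 12 of the 20 were called higher with CPI203 and none lower, and 1, the pseudogene HIST1H2APS3, was called higher with SGC-CBP30. The share of all genes called in that fit is not given here, so these counts have nothing to be set against. HIST1H2APS3 was listed at 0 in all 4 DMSO libraries, at 0.149 and 0.159 RPKM with SGC-CBP30 and at 0.286 and 0.502 RPKM with CPI203. These 20 were chosen in part by their level with CPI203 through the limit of 0.5 RPKM.

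The clusters were compared in the same way. The HIST1 sum was 424 and 408 RPKM with DMSO and 1815 and 1797 RPKM with CPI203, a ratio of 4.34. The HIST2 sum was 115 and 109 RPKM with DMSO and 724 and 739 RPKM with CPI203, a ratio of 6.52. On the log2 scale these were 2.12 ± 0.04 and 2.70 ± 0.05 (SD, n = 2), a gap larger than the SDs. With SGC-CBP30 the 2 clusters had ratios of 1.25 and 1.23, which lay within their SDs on the log2 scale, 0.32 ± 0.02 and 0.30 ± 0.06.

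Genes of other kinds that start between the outermost HIST1 histone genes were called higher with CPI203 about as often as genes in general. Of 20 tested, 3 were called higher and 6 lower, with a median log2 fold change of -0.04, where 13.4% of all genes were called higher and 14.4% lower. The 3 called higher were RP1-86C11.7 (3.13), RP1-34B20.4 (1.56) and the zinc finger gene ZNF184 (0.69). RP1-34B20.4 (chr6:26202383-26202882, hg19) lies among the histone genes, and RP1-86C11.7 (chr6:27090435-27091000, hg19) lies beside HIST1H2BJ. The largest falls were those of the butyrophilin genes BTN3A3, BTN3A2 and BTN3A1, whose log2 fold changes with CPI203 were -1.84, -1.61 and -1.46. RP1-86C11.7 was at 3.73 and 3.73 RPKM with DMSO and 31.6 and 35.3 RPKM with CPI203, and at 3.03 and 4.15 RPKM against 6.32 and 7.33 RPKM with SGC-CBP30. Of 69 tested genes between the outermost HIST2 genes, a far longer stretch of chromosome 1, 8 were called higher and 12 lower with CPI203, also near those shares. The 5 largest changes were those of TXNIP (1.78), an inhibitor of thioredoxin, RP11-782C8.3 (-1.74), RP11-196G18.22 (1.49), PDE4DIP (1.43) and SRGAP2C (1.32). Of these, RP11-196G18.22 (chr1:149816064-149820591, hg19) lies between HIST2H3C and HIST2H3A, and it was at 12.8 and 12.3 RPKM with DMSO and 36.1 and 34.9 RPKM with CPI203. In that inner block of HIST2 the 2 tested genes of other kinds were both called higher, RP11-196G18.22 and RP11-196G18.23 (0.89).

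**Figure D4:**
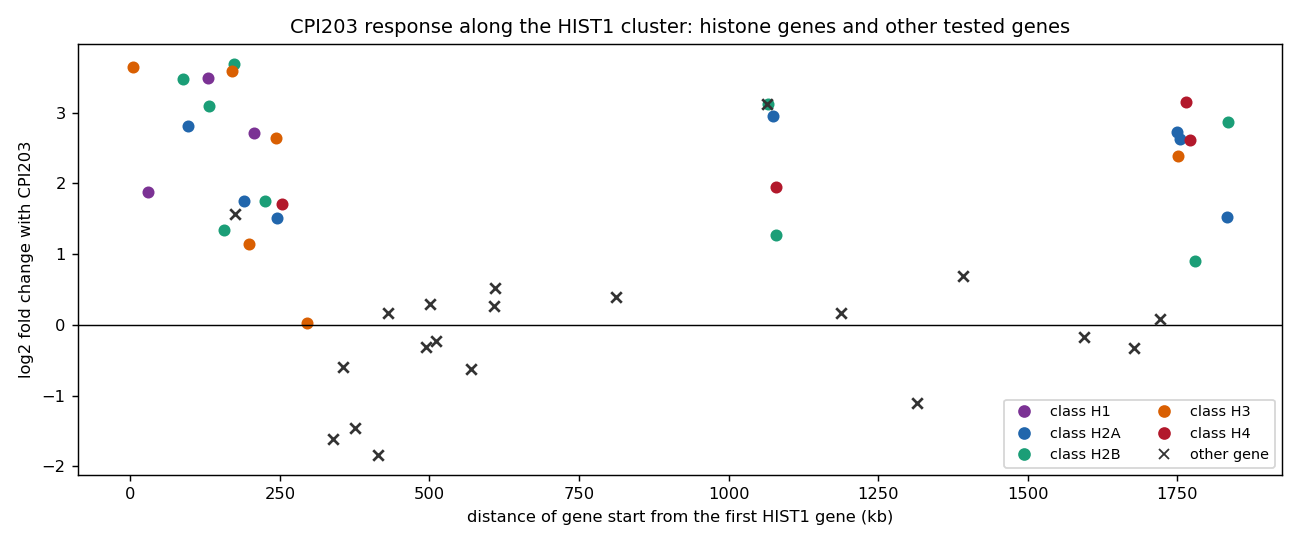
Log2 fold change with CPI203 (y axis) of each tested gene of HIST1 against the distance of its start from the first HIST1 histone gene in kb (x axis), with histone genes as dots coloured by class and other genes as crosses. The histone genes sit in 3 blocks above 0, and the crosses between the blocks lie on both sides of 0 from -1.84 to 0.69, with the 2 highest crosses inside or at the edge of a block.

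H2A and H2B genes often lie head to head and share the sequence between their starts. There were 12 such pairs among the 61 genes, with 129 to 375 bases between the starts, and both genes were tested in 6 of them. In the pair HIST1H2AC and HIST1H2BC, which share the promoter printed above, the log2 fold changes with CPI203 were 2.82 and 3.48, and with SGC-CBP30 0.92 and 1.18. In the pair HIST1H2AG and HIST1H2BJ they were 2.96 and 3.13 with CPI203 and 0.13 and 0.96 with SGC-CBP30. HIST1H2BJ was at 24.9 and 27.3 RPKM with DMSO and 49.4 and 52.0 RPKM with SGC-CBP30. Of the 6 pairs, the H2B gene had the larger change with CPI203 in 4. The exceptions were HIST2H2AA3 with HIST2H2BD and HIST2H2AA4 with HIST2H2BC, whose H2B partners are pseudogenes. Pairs left out by the filter also went the other way: HIST1H2AI went from a mean of 2.70 to 18.4 RPKM while its partner HIST1H2BL went from 0.838 to 1.41 RPKM, and HIST1H2AK went from 0.532 to 1.36 RPKM while HIST1H2BN went from 3.31 to 6.28 RPKM. These pairs were singled out after their values were seen, and the difference within a pair was not tested.

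A set of 7 genes known to give polyadenylated transcripts were set beside the rest: HIST1H1C, HIST1H2AC, HIST1H2BC, HIST1H2BD, HIST1H2BJ, HIST1H2BK and HIST2H2BE. These 7 made up 67.7% of the summed RPKM of the 61 genes in the DMSO libraries of CPI203 and 60.7% with CPI203. Their sum was 4.30 times higher with CPI203, and that of the other genes 5.85 times higher. The median log2 fold change with CPI203 was 3.09 for the 7 and 2.50 for the 34 others tested. With SGC-CBP30 all 7 rose at an adjusted p under 0.05 (limma) and 3 of them were called, with a median of 0.56. Of the 34 others 11 rose and 8 were called, with a median of 0.20. Of all genes tested, 25.6% rose and 3.47% were called higher. The SEs of the 7 were 0.03 to 0.07, against up to 0.29 among the others, so smaller changes could pass among the 7. HIST1H2BK passed at a log2 fold change of 0.13.

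In this group HIST1H2BD was at 15.7 and 16.6 RPKM against 23.1 and 24.6 RPKM with SGC-CBP30 and at 19.4 and 17.7 RPKM against 157 and 162 RPKM with CPI203. HIST2H2BE was at 10.0 and 9.72 RPKM against 13.7 and 14.4 RPKM with SGC-CBP30 and at 12.9 and 12.4 RPKM against 121 and 120 RPKM with CPI203. For both genes the treated libraries were above both DMSO libraries, as they were for 45.9% of all genes tested with SGC-CBP30 and 39.2% with CPI203. Among the genes with a stem-loop, 22 had a transcript annotated over 100 bases past it. Their median level over the 4 DMSO libraries was 4.85 RPKM, against 0.537 RPKM for the rest of the 61.

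How much RNA without a poly(A) tail a library held was read from other such RNAs, since the library type is not given in the sources used here. The signal recognition particle RNA RN7SL2 was at 331 and 313 RPKM with DMSO and 332.7 and 380 RPKM with CPI203. The RNA RN7SK, which holds the elongation factor P-TEFb, was at 41.6 and 18.2 RPKM with DMSO and 48.7 and 12.1 RPKM with CPI203, so that its replicates stood further apart than its groups. The 23 rows of such RNAs summed to 640 and 563 RPKM with DMSO and 653 and 681 RPKM with CPI203, and to 384 and 291 RPKM against 290 and 244 RPKM with SGC-CBP30. None of the 5 tested was called with either compound, where 27.8% and 7.26% of all genes were called with CPI203 and SGC-CBP30. With CPI203 none of the 5 had an unadjusted p under 0.05 (limma). With SGC-CBP30 RN7SL1 and RN7SL2 fell at an adjusted p under 0.05 (limma), by less than 1.5-fold, where 14.8% of all genes fell. Spliceosomal and small Cajal body RNAs of the list were near 0 in all libraries, and the part of RNA selection in the histone result was not tested.

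Of 25 genes for histone transcription and 3′ end processing, 3 were called higher and 3 lower with CPI203, near the 13.4% and 14.4% of all genes tested, with a median log2 fold change of -0.02. The 3 higher were CCNE2 (0.75) and CDK2 (0.66), a cyclin and its kinase that activate histone transcription, and CASP8AP2 (0.60), which codes for the processing factor FLASH. The 3 lower were LSM11 (-1.05) and LSM10 (-0.78), the proteins particular to the U7 snRNP that cuts histone mRNA, and ZNF473 (-0.74), which binds that particle. LSM11 went from 5.55 to 2.63 RPKM in the mean. SLBP, which binds the stem-loop, and NPAT, the coactivator at the histone genes, were not called. SLBP had log2 fold changes of 0.42 with CPI203 and 0.22 with SGC-CBP30, and NPAT one of 0.42 with CPI203, all past an adjusted p of 0.05 (limma). At that threshold 9 of the 25 genes rose and 9 fell with CPI203, where 31.1% and 33.1% of all genes did. The counts with SGC-CBP30 were 7 and 1, where 25.6% and 14.8% of all genes did so. With SGC-CBP30 the list had a median of 0.09 and 1 call, CCNE1 (-0.70).

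Of 13 histone chaperones, which carry new histones to DNA, 2 were called higher with CPI203, ASF1B (0.68) and ASF1A (0.66). None was called lower, where the shares of all genes were 13.4% and 14.4%. At an adjusted p under 0.05 whatever the size (limma), 7 rose and 3 fell, where 31.1% of all genes rose and 33.1% fell. With SGC-CBP30 none of the 13 was called, and 3 rose and 1 fell at an adjusted p under 0.05 (limma). At an unadjusted p under 0.05 there were 5, 3 of them higher. Of 24 genes of S phase, 2 were called higher with CPI203, RRM2 (0.86) and LIG1 (0.60), and 2 lower, POLE2 (-0.95) and UNG (-0.79). The median of the 24 was -0.02, and 13.4% of all genes were called higher and 14.4% lower. With SGC-CBP30 none of the 24 was called by limma, 11 rose and 1 fell at an adjusted p under 0.05 (13 and 1 at an unadjusted p), where 25.6% of all genes rose and 14.8% fell, and the median was 0.12. In bulk RNA, more cells in S phase and more histone RNA per cell cannot be told apart, and the part of the cell cycle in the histone values was not tested.

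Replication-independent histone genes are for the most part polyadenylated and expressed also outside S phase. Of 10 tested, 9 rose and 1 fell with CPI203 at an adjusted p under 0.05 whatever the size (limma). The shares of all genes were 31.1% and 33.1%, and the median log2 fold change of the 10 was 0.64. With the limit of 1.5-fold 5 were called higher and none lower, where 13.4% of all genes were called higher and 14.4% lower. The 5 were H1F0 (2.09), H1FX (0.89), H3F3B (0.83), CENPA (0.74) and H2AFX (0.73). H1F0, a linker histone of cells that leave the cycle, was also the 1 of the 10 called with SGC-CBP30 (1.17). At an adjusted p under 0.05 (limma) 3 of the 10 rose and 4 fell with SGC-CBP30, where 25.6% and 14.8% of all genes did. H1F0 went from a mean of 0.677 to 3.20 RPKM with CPI203, a lower level than most histone genes described here.

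**Figure D5:**
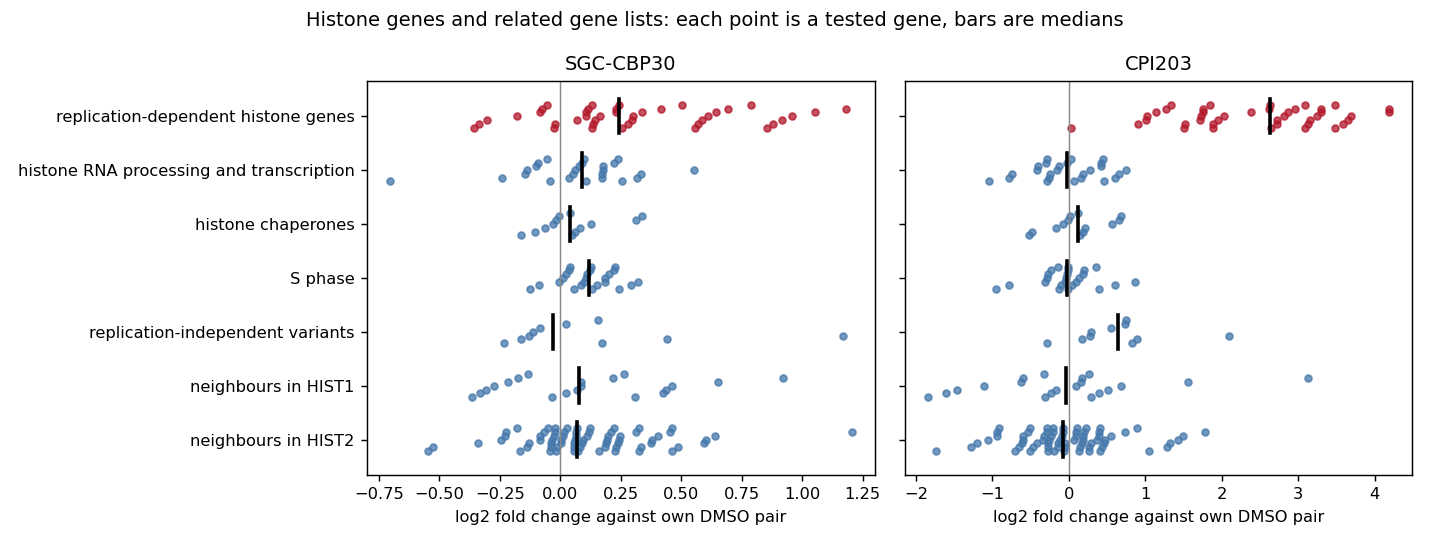
Log2 fold change (x axis) with SGC-CBP30 on the left and CPI203 on the right of each tested gene in 7 lists, with black bars at the medians. With CPI203 the histone genes have their median at 2.63 and the other lists have medians between -0.07 and 0.64, and with SGC-CBP30 the lists overlap, with medians from -0.03 to 0.24.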

How the data were processed

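LP-1 RNA was made by the study with on-column DNase digestion and sequenced and mapped by a service provider. The values the authors deposited are RPKM, and the submitters' processing notes name TopHat 1.4.1, Cufflinks and hg19. Library type, strand and read length are not given in the sources used here. The deposited table holds 24 columns of other libraries, which were not used, and 27 genes lacking a value in at least 1 library were dropped. Overlapping or near-identical genes can share reads, so single copies are uncertain and class sums are given beside them. In counts and medians of genes each copy stands as a separate gene, so copies that share reads are not independent there.

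Values were tested as log2(RPKM + 0.1) in limma 3.58.1 (R 4.3.3), in 1 fit of 4 group means over all 8 libraries and the 14732 genes averaging 1 RPKM or more, with an intensity trend and Benjamini-Hochberg adjustment. A pseudocount of 0.1 understates the change of low genes. To be called, a gene needed a change of 1.5-fold or more at an adjusted p under 0.05. The fit had 4 residual and 5.48 prior degrees of freedom, and n = 2 a group limits its precision. The scripts were tested on simulated data. Depth is estimated: 58.7% to 71.4% of low values of genes with 1 exon and 1 transcript came out as whole reads within 0.1 read. No counts were therefore recovered and no counting interval is given. Class and cluster sums were added up per library, with no test. Other pseudocounts, filters, scalings, controls and fits, a replicate block and left-out libraries were tried as alternatives. Genes named singly are, in each class, the most abundant with DMSO and those with the largest and smallest change with each compound, copies with identical values, HIST4H4, genes called lower and, in other lists, the called genes up to 5, plus the lists themselves. The histone genes, lists and motifs were chosen with earlier results of these data known. Positions in the values are hg19, and promoters are RefSeq on GRCh38.p14.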

Additional observations from a re-analysis of the deposited data

How the results depend on the processing

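The CPI203 results were the steadier. Of 254 recomputed values of the counts, class sums and cluster sums, 218 stayed within 1.5 times the count or 1 SD of the sum. The 40 calls with CPI203 and the 39 genes with a larger response to it became 24 and 24 under a filter of 5 RPKM on the mean, which left 24 histone genes to test. The 11 calls with SGC-CBP30 became 3 with a pseudocount of 1, 7 under that filter, 7 under a filter of 1 RPKM on the mean of the 4 DMSO libraries, 6 after quantile normalization and 6 with all 4 DMSO libraries as controls, which also gave 1 call lower. With each library left out in turn they ranged from 5 to 11.

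The replicate block gave 40 calls with CPI203 and 10 with SGC-CBP30. The numbers were not shown to pair the libraries: with 2 pairs, replicate differences correlated at -0.17 in the SGC-CBP30 experiment and -0.04 in the CPI203 experiment, and a crossed pairing, added after the data were seen, gave 11 calls. The block changed no other count by over 1.5 times.

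With all 4 DMSO libraries as controls the log2 ratios of the class sums with CPI203 were 1.83 for H1, 1.96 for H2B, 3.05 for H3 and 3.17 for H4, those of the clusters 2.05 for HIST1 and 1.82 for HIST4, and those with SGC-CBP30 were 0.33 for H1, 0.43 for H2B, 0.16 for H3, 0.27 for H4, 0.39 for HIST1 and -0.12 for HIST4. Median scaling gave 0.16 for H1, 0.27 for H2A, 0.24 for H2B, 0.24 for HIST1 and 0.22 for HIST2 with SGC-CBP30, and quantile normalization 0.32 for H1, 0.37 for H2B, 0.37 for HIST1 and 0.23 for HIST2. Without genes that overlap another expressed gene, an alternative added after the data were seen, they were 2.82 for H2B, 2.57 for H3 and 1.93 for H4 with CPI203 and 0.65 for H2B and 0.28 for H4 with SGC-CBP30. The cause was not tested. With each library left out in turn the log2 ratios stayed within 2.82 to 2.98 for H3 and 2.97 to 3.01 for H4 with CPI203, and 0.42 to 0.53 for H4 with SGC-CBP30.

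Of 792 recomputed values of single genes, 749 kept their direction and side of the threshold, and 9 changed sign, all of changes that were not called. With SGC-CBP30 these were HIST1H1D (-0.13 after quantile normalization, -0.017 with all 4 DMSO libraries, and -0.11 to 0.34 with each library left out), HIST1H2AG (-0.15) and HIST2H2BC (0.0082) with all 4 DMSO libraries, and HIST1H3PS1 (-0.41 to 0.37 with each library left out). With CPI203 it was HIST1H3PS1 (-0.11 to 0.17). With 2 libraries a group and few reads for genes under 1 RPKM, changes of such genes with SGC-CBP30 were at the limit of what could be told from replicate spread.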
